A study of Mus musculus with 24 samples.

Results

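The Hox genes are homeobox transcription factors that lie in 4 clusters, a to d, in the mouse genome. Every row of the deposited expression table whose platform symbol was a Hox letter followed by a paralogue number was taken, which gave 33 genes with 1 row each, of 19505 genes in 19572 annotated rows. There were 8 genes of the a cluster, 9 of the b cluster, 9 of the c cluster and 7 of the d cluster. Other genes of the family were not analysed here.

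The data are 24 arrays of total RNA from biopsies of mouse brain, and each value is on a log2 scale, so a difference of 1 is a 2-fold difference. Cerebral cortex, hippocampus and cerebellum were each taken from 4 wild-type (WT) animals and from 4 animals with a knockout (KO) of glutamine synthetase restricted to the liver, and per the series title the study addresses changes of the brain under hyperammonemia, a raised level of ammonia. The labels number the animals 1 to 4 within a genotype and repeat the numbers across regions. The sources used here give no strain, age or sex of the animals and not the promoter that restricts the deletion to liver, and no array was of liver.

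In the embryo each Hox gene is expressed from a front limit in the hindbrain or spinal cord backwards, and genes of low paralogue number reach farther forward than genes of high number. The cerebellum forms from the foremost hindbrain segment, which is free of Hox expression, and the front limit of Hoxa2 lies just behind that segment. Midbrain and forebrain lie in front of all Hox domains and use other homeobox genes, such as the Otx and Emx families. Hox proteins bind DNA together with cofactors of the Pbx, Meis and Pknox families.

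The arrays matched their labelled regions, with exceptions that touch the results below. The mean of 17 granule and Purkinje cell markers was 13.13 to 14.74 in the cerebellum and at most 9.48 in cortex and hippocampus, while the mean of 8 forebrain markers was 7.76 to 8.70 in cerebellum and 10.97 to 11.98 in cortex. Cerebellum KO 3 stood apart. It had the lowest value of the 8 cerebellum arrays for 16 of the 17 granule and Purkinje markers, against 27.9% of all rows. It had the highest for 13 of 22 brainstem and spinal cord markers and for 10 of 10 oligodendrocyte markers, against 23.8% of all rows. Its spread around its group means was 0.357 (residual SD over all rows), against 0.152 to 0.266 in the other 23 arrays. The Hox results that use the cerebellum KO group are therefore given with and without it. Cortex KO 1 and KO 4 also differed from the other cortex arrays in Hox cofactor genes, as described below.

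The Hox genes were nearly flat across brain regions. Over all 24 arrays a Hox gene ranged over a median of 0.76, from 0.45 for Hoxb2 to 1.62 for Hoxa2. The range exceeded 1 for 3 of 33 Hox genes (9.09%), namely Hoxa2, Hoxa13 and Hoxd9, and for 40.4% of all rows. Between the lowest and highest of the 6 group means the median Hox gene spanned 0.27, and 32 of 33 spanned less than 0.5, as did 61.1% of all rows. No Hox gene had group means that spanned more than 1, against 14.8% of all rows. The spread within groups was alike, with a median residual SD of 0.18 for the Hox genes and 0.19 for all rows.

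**Figure D1:**
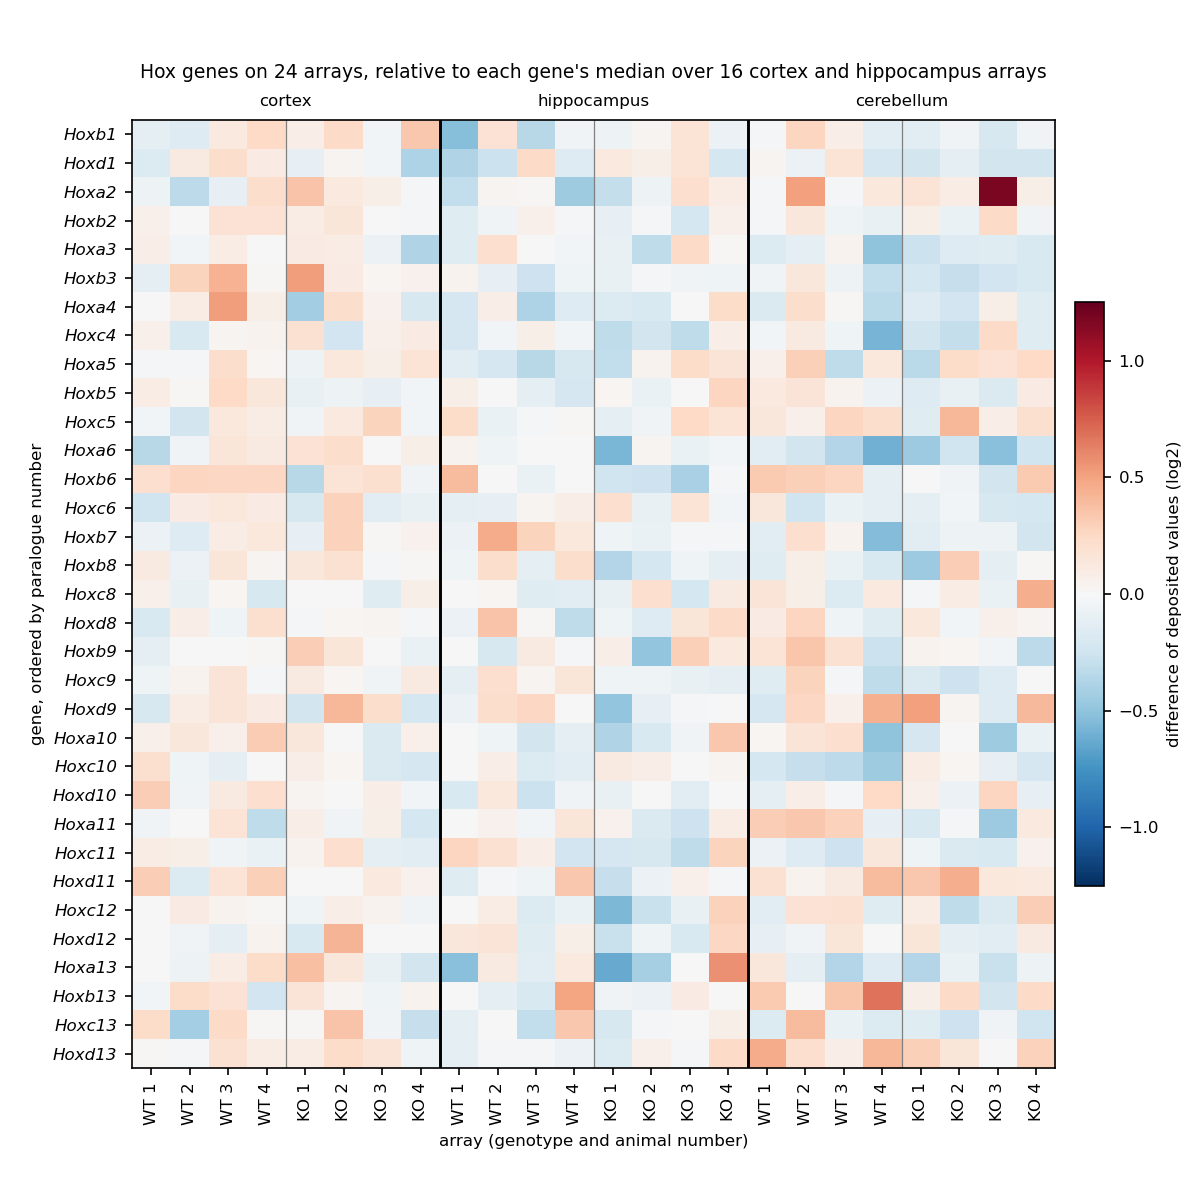
Log2 value of each of the 33 Hox genes (rows, by paralogue number) in each of the 24 arrays (columns, by region and genotype), as the difference from that gene's median over the 16 cortex and hippocampus arrays. The colour scale is symmetric about 0 (red above, blue below), most fields are pale, and the darkest is Hoxa2 in cerebellum KO 3, at 8.42 against a forebrain median of 7.24.

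In wild-type animals the Hox genes did not set the cerebellum apart from the cortex. The test was limma on all 24 arrays with Benjamini-Hochberg adjustment over all 19572 rows and a threshold of 0.05. Of the 33 genes 1 was called, Hoxc10, while 35.7% of all rows were called, 16.6% as lower in the cerebellum. Hoxc10 belongs to a paralogue group that acts in the lumbar spinal cord and hindlimb. Its values were 6.01, 5.94, 5.90 and 5.78 in cerebellum and 6.43, 6.18, 6.11 and 6.22 in cortex, so the groups did not overlap and the cerebellum was the lower. The difference was -0.33 (SE 0.10, limma adjusted p = 0.0113, n = 4 and 4). The call was lost without cortex WT 1, the highest of the 8 values (adjusted p = 0.0568). No other Hox gene had groups that did not overlap, against 33.7% of all rows. The median over the 33 genes was -0.06, beside -0.02 over all rows.

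Against the hippocampus, 2 of 33 Hox genes were called in wild-type cerebellum, 1 in each direction, with 34.8% of all rows called (17.5% higher and 17.2% lower). Hoxc10 was again lower in the cerebellum, by -0.26 (SE 0.10, limma adjusted p = 0.0422), with hippocampus values of 6.22, 6.31, 6.05 and 6.10. This second comparison uses the same cerebellum arrays as the first, so it is not a separate observation of Hoxc10. The call was lost without hippocampus WT 1 or WT 2, or without cerebellum WT 2, WT 3 or WT 4 (adjusted p from 0.0544 to 0.134), in a fit of these 2 groups alone (adjusted p = 0.0699), and with each array centred on its median (-0.21, adjusted p = 0.111). Hoxd13, a gene of the hindmost body, had values of 6.65, 6.39, 6.26 and 6.60 in cerebellum and of 6.07, 6.16, 6.16 and 6.11 in hippocampus. Every cerebellum value was above every hippocampus value, and the difference was 0.35 (SE 0.11, limma adjusted p = 0.0112), which missed the threshold without cerebellum WT 1 (adjusted p = 0.0531). Values of 3 Hox genes did not overlap, against 35.7% of all rows.

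Hippocampus and cortex of wild-type animals, both in front of the Hox domains, differed in 0 of 33 Hox genes by limma, with 2 at an unadjusted p under 0.05 and a smallest adjusted p of 0.186. Over all rows 7% were called and 20.8% had an unadjusted p under 0.05. Values of 3 Hox genes did not overlap, all lower in hippocampus, against 15.9% of all rows. All 8 genes of paralogue groups 1 to 4 had a lower mean in hippocampus, by -0.03 (Hoxa3) to -0.34 (Hoxa4). None of these 8 differences passed the test, and the genes share the same arrays. Of all 33 Hox genes 22 had the lower mean in hippocampus, and in knockout animals 5 of the same 8 were lower and 3 higher, from -0.23 (Hoxb3) to 0.15 (Hoxd1).

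Ordered by paralogue number, no block of the clusters separated the cerebellum from the forebrain regions. In the cerebellum minus cortex comparison of wild-type animals, the 8 genes of groups 1 to 4, which reach into the hindbrain, ran from -0.24 (Hoxa4) to 0.22 (Hoxa2) with a median of -0.12. The 10 genes of groups 5 to 8, whose limits lie at the neck and trunk, ran from -0.30 (Hoxa6) to 0.18 (Hoxc5) with a median of -0.06. The 15 genes of groups 9 to 13, which pattern the lower spine, tail and limbs, ran from -0.33 (Hoxc10) to 0.31 (Hoxb13) with a median of -0.02. Against the hippocampus the 3 medians were 0.06, 0.08 and 0.06, in the same order of groups.

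These arrays also bounded the differences. No Hox gene differed by 2-fold in any of the 9 comparisons, while 10% of all rows did so between cerebellum and cortex of wild-type animals, 9.92% between cerebellum and hippocampus, and 1.5% between hippocampus and cortex. In knockout animals these shares of all rows were 8.26%, 8.23% and 2.14%, and between genotypes they were 0.307% in cortex, 0.0204% in hippocampus and 0.337% in cerebellum. Without cerebellum KO 3 no Hox gene reached 2-fold either, against 9.42%, 9.58% and 0.118% of all rows in the comparisons of knockout cerebellum with cortex, hippocampus and wild-type cerebellum. The 95% interval of all 33 genes lay within -1 and 1 in each comparison. The farthest bound in wild-type animals was 0.72, for Hoxa2 between cerebellum and hippocampus. The bounds hold for the deposited values, and all 33 Hox rows lay under the median of the row means, where background correction and summarizing of probes narrow differences. In a bulk sample, fewer cells of a type and less RNA per cell cannot be told apart.

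**Figure D2:**
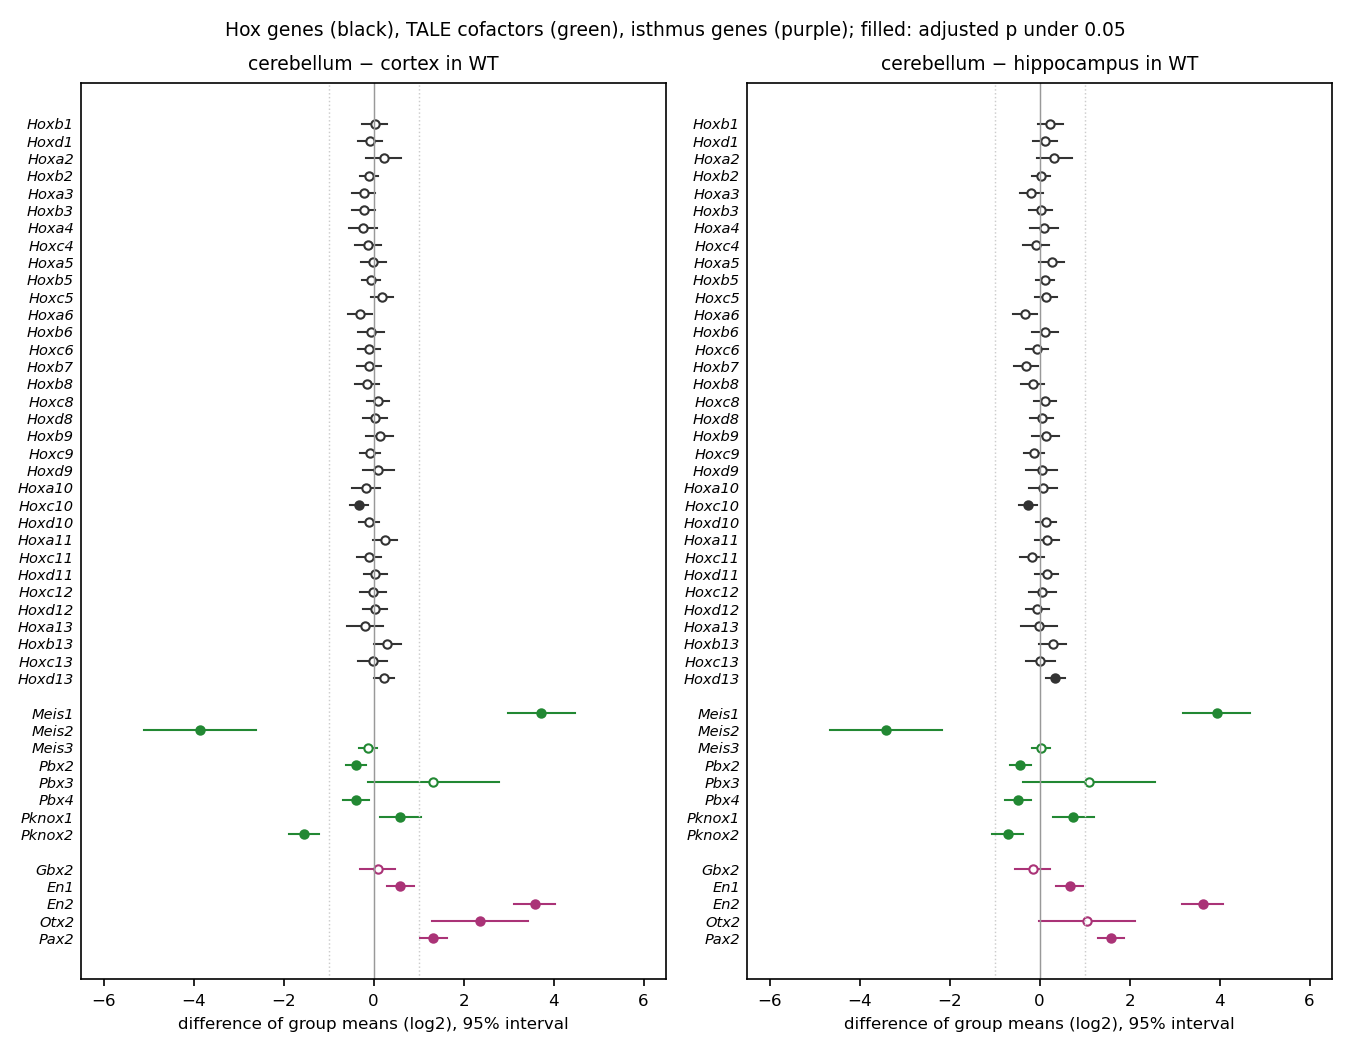
Difference in log2 value between wild-type cerebellum and cortex, and between wild-type cerebellum and hippocampus, with 95% intervals from limma, for the 33 Hox genes (black), 8 cofactor genes (green) and 5 isthmus and midbrain genes (purple); filled points have an adjusted p under 0.05 and dotted lines mark -1 and 1. All Hox intervals lie between the dotted lines, while Meis1 and En2 lie above 3 and Meis2 below -3 in both panels.

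In knockout animals the pattern was as flat. Between cerebellum and cortex 2 of 33 Hox genes were called, both lower in the cerebellum, against 32% of all rows (14.1% lower). Hoxb3, with a limit inside the hindbrain, had values of 8.29, 8.22, 8.26 and 8.32 in cerebellum and of 9.02, 8.60, 8.53 and 8.56 in cortex. Its difference was -0.41 (SE 0.12, limma adjusted p = 0.0123), and the single high value of cortex KO 1 carried part of it. Without that array the difference was -0.29 (adjusted p = 0.0712). Hoxa6, a gene of the lower neck and trunk, had values of 6.73, 6.93, 6.66 and 6.93 in cerebellum and of 7.36, 7.41, 7.19 and 7.26 in cortex. The groups did not overlap, the difference was -0.49 (SE 0.13, limma adjusted p = 0.00441), and the call held when any of the 8 arrays was left out. Values of 4 Hox genes did not overlap, against 26.9% of all rows. Without cerebellum KO 3 the same 2 genes were called, with 33.1% of all rows (14.8% lower), and values of 4 did not overlap, against 37.6%.

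Between cerebellum and hippocampus of knockout animals 1 of 33 Hox genes was called, against 31.2% of all rows (16.6% higher). Hoxd11, a gene of the lower spine and limbs, had values of 6.39, 6.51, 6.19 and 6.18 in cerebellum and of 5.76, 5.98, 6.12 and 6.03 in hippocampus, a difference of 0.34 (SE 0.12, limma adjusted p = 0.0351). The call was lost without hippocampus KO 1 or KO 2, or without cerebellum KO 1 or KO 2 (adjusted p from 0.0579 to 0.128), and in a fit of these 2 groups alone (adjusted p = 0.0613). Without cerebellum KO 3, Hoxd9 was called as well, at 0.47 (SE 0.17, adjusted p = 0.0371), beside Hoxd11 at 0.39 (adjusted p = 0.0249), with 33.6% of all rows called (17.5% higher). Values of 2 Hox genes did not overlap, against 27.6% of all rows, and without cerebellum KO 3 it was 3, against 39.5%. Between hippocampus and cortex 0 of 33 were called by limma, against 6.77% of all rows, and 2 had an unadjusted p under 0.05, against 18.7%. Values of 3 Hox genes did not overlap there, against 11.8% of all rows. Whether a regional difference of a Hox gene itself differed between the genotypes was tested as an interaction. For each of the 3 pairs of regions 0 of 33 Hox genes and 0% of all rows were called, with 1, 0 and 1 Hox genes at an unadjusted p under 0.05, and the counts were equal without cerebellum KO 3.

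Hoxa2 departed most from the flat pattern, and in 1 array, cerebellum KO 3. Over all rows 4.12% rose at least as far above the other cerebellum arrays in that array. The cerebellum values of Hoxa2 were 7.22, 7.75, 7.22 and 7.37 in wild-type animals and 7.42, 7.33, 8.42 and 7.31 in knockout animals. Cortex gave 7.17, 6.92, 7.14 and 7.46 in wild-type and 7.60, 7.36, 7.31 and 7.23 in knockout animals. Hippocampus gave 6.93, 7.27, 7.26 and 6.80 in wild-type and 6.95, 7.18, 7.45 and 7.33 in knockout animals. Cerebellum KO 3, at 8.42, was the highest of all 24 arrays, while the other 7 cerebellum arrays lay at 7.38 ± 0.18 (SD, n = 7), with all but the 7.75 of cerebellum WT 2 inside the range of the 16 forebrain arrays (6.80 to 7.60). The animal with the same number gave 7.31 in cortex and 7.45 in hippocampus.

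The sequence before the Hoxa2 start site is shown because this is the member whose value moved, with that of Hoxa5 from the same cluster, which did not move in the same array. Both are the 250 bases before the annotated RefSeq start in build GRCm38.p6, on the minus strand: chr6:52164832-52165081 for Hoxa2 and chr6:52204588-52204837 for Hoxa5. Capitals mark a match to TGATNNAT, the form of site that Pbx and Hox proteins bind as a pair, searched on both strands (ATNNATCA on the other).
Hoxa2: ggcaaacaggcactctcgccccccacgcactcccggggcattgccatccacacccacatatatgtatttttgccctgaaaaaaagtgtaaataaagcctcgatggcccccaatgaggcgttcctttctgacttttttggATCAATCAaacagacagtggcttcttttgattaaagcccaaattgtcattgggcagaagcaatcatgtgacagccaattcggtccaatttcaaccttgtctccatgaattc
Hoxa5: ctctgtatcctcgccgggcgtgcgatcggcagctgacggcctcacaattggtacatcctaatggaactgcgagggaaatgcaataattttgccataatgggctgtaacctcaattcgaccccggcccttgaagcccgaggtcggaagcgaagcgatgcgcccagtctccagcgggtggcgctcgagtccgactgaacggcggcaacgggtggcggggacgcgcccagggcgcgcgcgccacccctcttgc

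The match in the Hoxa2 window begins at -111 from the start site and reads on the opposite strand, and the Hoxa5 window held no match. Of the 33 Hox genes 17 had a window in this table, with 19 windows in all. The motif was in 4 of the 19 (1 each of Hoxa2, Hoxb1, Hoxb8 and Hoxd11) and in 7.68% of all 32851 windows of that length. Hoxb1, Hoxb8 and Hoxd11 have a match but did not rise in cerebellum KO 3. Hoxb1 was at 7.89 there, under the 7.95 to 8.36 of the other cerebellum arrays. Hoxb8 was at 8.01 against 7.68 to 8.44, and Hoxd11 at 6.19 against 6.10 to 6.51. A match describes the letters only and says nothing of binding.

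With cerebellum KO 3 in the group, Hoxa2 averaged 7.62 ± 0.53 (SD, n = 4) in knockout and 7.39 ± 0.25 (SD, n = 4) in wild-type cerebellum, a difference of 0.23 (SE 0.19, limma adjusted p = 0.716). Without that array the knockout mean was 7.35 ± 0.055 (SD, n = 3) and the difference -0.04 (adjusted p = 0.999), so its sign rested on the 1 array. The knockout cerebellum was above the hippocampus by 0.39 with the array (adjusted p = 0.131) and by 0.13 without it (adjusted p = 0.591). In wild-type animals, in which that array has no part, the cerebellum was above the cortex by 0.22 (SE 0.19, adjusted p = 0.421) and above the hippocampus by 0.33 (SE 0.19, adjusted p = 0.203). None of these Hoxa2 differences passed the test.

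**Figure D3:**
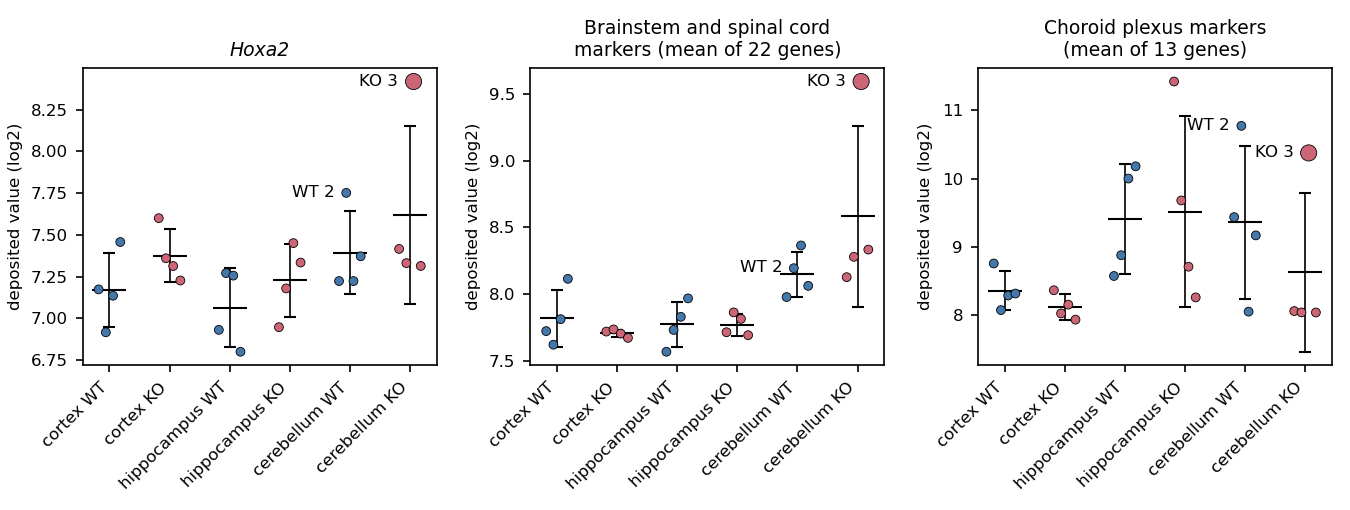
Log2 value of Hoxa2, mean of the 22 brainstem and spinal cord markers and mean of the 13 choroid plexus markers in each array (WT blue, KO red), with group mean ± SD; cerebellum KO 3 and WT 2 are marked. Cerebellum KO 3 is the highest array for Hoxa2 (8.42) and for the brainstem and spinal cord mean (9.59), but not for the choroid plexus mean.

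Markers of neighbouring tissue and some forebrain markers moved in the same array, and their part in the Hoxa2 value was not tested. The marker lists were chosen with earlier results of these data known, so their shifts are a description. The mean of the 22 brainstem and spinal cord markers was 9.59 in cerebellum KO 3, 7.98 to 8.37 in the other 7 cerebellum arrays, 7.62 to 8.12 in cortex and 7.57 to 7.97 in hippocampus. Glra1, the glycine receptor subunit of brainstem and spinal cord, was at 14.14 in KO 3 and at most 9.81 in the other 7. Tph2, the serotonin-synthesizing enzyme of the raphe nuclei, was at 10.35 against 5.38 to 6.25, and Slc6a4, the serotonin transporter, at 12.36 against 7.18 to 8.39. The mean of the 10 oligodendrocyte markers was 12.97 against 10.99 to 11.51, and that of 11 markers of meninges and fibroblasts was 10.48 against 9.78 to 10.06. Of those 11 markers 8 were highest in KO 3, against 23.8% of all rows. Granule and Purkinje markers averaged 13.13 against 14.31 to 14.74. The mean of the 8 forebrain markers was 8.70 in KO 3 against 7.76 to 8.01. Of these 8 markers 3 were highest in KO 3 and 5 were not, against 23.8% of all rows highest. The widest apart was Lamp5, at 12.22 against 6.67 to 7.73.

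Markers of choroid plexus, a tissue attached to the ventricles, were highest in the 2 cerebellum arrays with the highest Hoxa2. The mean of 13 choroid plexus markers was 10.38 in cerebellum KO 3 and 10.77 in cerebellum WT 2, where Hoxa2 was 7.75, and from 8.04 to 9.44 in the other 6, where Hoxa2 was 7.22 to 7.42. Of the 13 markers 1 was highest in KO 3, against 23.8% of all rows. This was Ttr, the thyroid hormone carrier that defines this tissue, at 17.56 against 9.65 to 17.09. In hippocampus KO 1, whose choroid plexus lies in the forebrain, the marker mean was 11.42 and Hoxa2 was 6.95. The part of choroid plexus in the Hoxa2 value was not tested.

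The Hoxa2 step could be placed among those of all genes. It lay 0.67 above the highest other cerebellum array and 1.04 above the mean of the other 7. A step at least as large was measured in 807 of 19572 rows (4.12%). Among genes with a standard name other than odorant and vomeronasal receptors, the largest were 4.49 for Lamp5, 4.33 for Glra1, 4.09 for Tph2 and 3.97 for Slc6a4. A step over 0.5 was found in 6.45% of all rows and in 1 of 33 Hox genes, Hoxa2.

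The other Hox genes did not rise together in cerebellum KO 3. That array was the highest of the 8 cerebellum arrays for 4 of 33 Hox genes, against 23.8% of all rows. Besides Hoxa2 these were Hoxc4, at 7.38 against 6.56 to 7.25, Hoxb2, at 9.07 against 8.74 to 8.98, and Hoxd10, at 5.82 against 5.44 to 5.80. Hoxb2 is the paralogue of Hoxa2 with the next limit behind it, and Hoxc4 has a limit near the border of hindbrain and spinal cord. These 3 lay 0.13 (Hoxc4), 0.093 (Hoxb2) and 0.021 (Hoxd10) above the next array, where the other 7 had SDs of 0.22, 0.088 and 0.13. The array was the lowest of the 8 for 8 of 33 Hox genes (Hoxb1, Hoxd1, Hoxb5, Hoxb6, Hoxa11, Hoxd12, Hoxb13 and Hoxd13), against 27.9% of all rows.

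Other genes with a limit in the hindbrain or upper spinal cord lay within or under the range of the other cerebellum arrays. Hoxa3 was at 5.51 in KO 3 and at 5.16 to 5.70 in the other 7, Hoxa4 at 8.48 against 8.07 to 8.63, and Hoxb3 at 8.26 against 8.19 to 8.65. Hoxa5, a marker gene of the neck-level cord, was at 7.05 against 6.54 to 7.17. Hoxb1, which marks the fourth hindbrain segment of the embryo, was at 7.89, under the 7.95 to 8.36 of the others, and Hoxb5, of the neck level, at 7.26, under 7.28 to 7.60.

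The median difference between cerebellum KO 3 and the mean of the other 7 was -0.10 for the Hox genes and -0.06 for all rows. Across the 33 genes this difference ran against the paralogue number with a Pearson r of -0.43, and of -0.35 without Hoxa2. All points share the same KO 3 array, and genes are not independent replicates, so this r is a description.

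**Figure D4:**
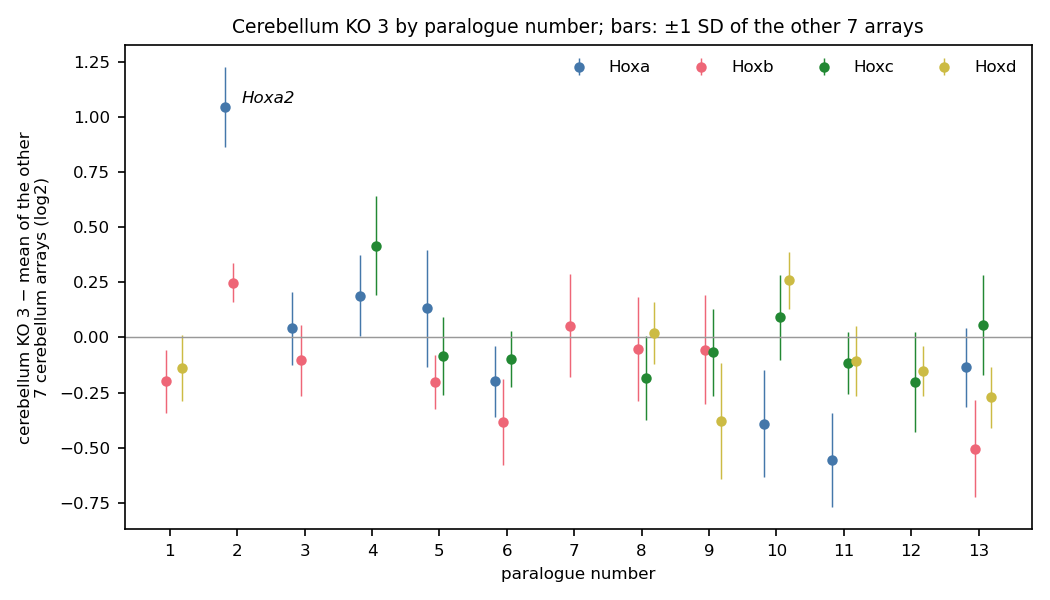
Difference in log2 value between cerebellum KO 3 and the mean of the other 7 cerebellum arrays (y axis) against paralogue number (x axis) for the 33 Hox genes, coloured by cluster; bars are ± 1 SD of the other 7 arrays. Hoxa2 lies at 1.04, and the remaining genes scatter around the median of -0.10.

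Against the 16 forebrain arrays, cerebellum KO 3 had 3 Hox genes above the forebrain range (Hoxa2, Hoxb2 and Hoxc4) and 3 below it. The other 7 cerebellum arrays had 1 to 6 above and 1 to 8 below. Over all rows 17.7% to 21.4% were above and 16% to 19.9% below, depending on the array. The 0.82 by which Hoxa2 in KO 3 exceeded the forebrain range was the largest excess of any Hox gene, and in the other 7 arrays the largest was 0.25, for Hoxc8 in cerebellum KO 4.

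The liver knockout was without a called effect on the Hox genes in any of the 3 regions. In cortex 0 of 33 Hox genes were called by limma and 0% of all rows, with 0 Hox genes at an unadjusted p under 0.05 against 7.45% of all rows. In hippocampus it was 0 of 33 and 0%, with 1 Hox gene at an unadjusted p under 0.05 (Hoxb6, -0.31) against 2.11% of all rows, and 0 without overlap against 2.17%. In cerebellum it was 0 of 33 and 0%, with 2 Hox genes at an unadjusted p under 0.05 against 9.5% of all rows. Without cerebellum KO 3 it was again 0 of 33 and 0%, with 1 Hox gene against 3.52% of all rows at an unadjusted p under 0.05. The 0% over all rows did not hold in every setting: 55 rows were called in cortex without cortex KO 2 and 34 without cortex KO 3, none of them a Hox gene.

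The 2 cerebellum genes at an unadjusted p under 0.05 were Hoxc10 and Hoxa11, both of the hind part of the clusters. Hoxc10 was at 6.32, 6.25, 6.12 and 6.02 in knockout animals, each above the 4 wild-type values of 5.78 to 6.01, with a difference of 0.27 (SE 0.10, limma adjusted p = 0.435). It was the 1 Hox gene with groups that did not overlap in cerebellum, against 3.5% of all rows, and was so without cerebellum KO 3, against 5.08%. Hoxa11 was at 6.87, 7.03, 6.61 and 7.18 in knockout and at 7.36, 7.39, 7.34 and 6.95 in wild-type animals, with a difference of -0.34 (SE 0.13, limma adjusted p = 0.444) and overlapping groups. In cortex Hoxb5 and Hoxb6 had knockout values all below the wild-type values, by -0.20 and -0.25, against 3.68% of all rows without overlap, and neither was called. The WT arrays of a region serve both these comparisons and the regional ones.

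Some cofactors of the Hox proteins differed widely between the regions. In wild-type animals 2 of 8 measured Pbx, Meis and Pknox genes were called higher and 4 lower in cerebellum than in cortex, beside 35.7% of all rows called. Meis1, a cofactor also expressed by cerebellar granule cells, averaged 12.86 ± 0.22 (SD, n = 4) in cerebellum and 9.14 ± 0.26 (SD, n = 4) in cortex, a difference of 3.73 (SE 0.36, limma adjusted p = 6.03e-09). Meis2 averaged 9.90 ± 1.26 in cerebellum and 13.77 ± 0.41 in cortex (SD, n = 4 each), a difference of -3.87 (SE 0.61, limma adjusted p = 1.07e-05). Pknox2 was lower by -1.55, Pbx2 by -0.39 and Pbx4 by -0.39, and Pknox1 was higher by 0.60. Against the hippocampus the counts were again 2 higher and 4 lower, beside 34.8% of all rows, with Meis1 at 3.94 and Meis2 at -3.41.

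Between hippocampus and cortex 0 were higher and 1 lower, Pknox2 at -0.84, beside 7% of all rows. In knockout animals 1 cofactor was higher and 4 were lower in cerebellum than in cortex, beside 32% of all rows. Without cerebellum KO 3 the counts were 1 and 3, beside 33.1%. Against the hippocampus 1 was higher and 2 lower, beside 31.2%, and without that array 1 and 3, beside 33.6%. Between hippocampus and cortex of knockout animals 0 were higher and 3 lower, beside 6.77%. The mean of the 8 cofactors was 11.39 in cortex KO 1 and 11.29 in cortex KO 4, against 10.01 to 10.26 in the other 6 cortex arrays. In cerebellum KO 3 Meis2 was at 13.83 against 8.41 to 11.56, and Pbx3 was 0.78 above the highest other cerebellum array. Between genotypes 0 of 8 were called in each region. What set these 3 arrays apart was not tested. Cofactor calls are given without cerebellum KO 3 but not without cortex KO 1 or KO 4.

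Genes of the isthmus, the border of midbrain and hindbrain in front of the Hox domains, and of the midbrain went both ways. Of 14 measured, 4 were called higher, 2 lower and 8 not at all in wild-type cerebellum against cortex, beside 35.7% of all rows called, and their median difference was 0.056. En2, a homeobox gene of the isthmus that persists in the adult cerebellum, averaged 11.51 ± 0.19 in cerebellum and 7.92 ± 0.27 in cortex (SD, n = 4 each), a difference of 3.58 (SE 0.22, limma adjusted p = 1.45e-12). Otx2 was higher by 2.35, Pax2 by 1.33 and En1 by 0.59. Otx2 is also a marker of choroid plexus, whose marker mean ran from 8.06 to 10.77 in the wild-type cerebellum arrays, and that tissue's part was not tested. Nr4a2 and Otx1 were lower, by -1.79 and -0.52. Against the hippocampus 4 were higher (En2 by 3.63, Pax2 by 1.59, En1 by 0.66 and Fgf8 by 0.41) and 2 lower, beside 34.8% of all rows, and 1 differed between hippocampus and cortex, beside 7%.

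Regulators that set or keep Hox expression in the embryo were mixed. Of 20 measured genes, 4 were called higher and 2 lower in wild-type cerebellum than in cortex, beside 35.7% of all rows called. Kat6a, a histone acetyltransferase that activates Hox genes, was higher by 1.28. Ezh2, the Polycomb methyltransferase that silences them, was higher by 1.21, and Bmi1, of the other Polycomb complex, by 0.62. The retinoic acid receptor Rara was higher by 0.40. Egr2, a hindbrain segment gene that activates Hoxa2 and Hoxb2 in the embryo and responds to neuronal activity in the adult, was lower by -2.49, and Phc1, a Polycomb gene, by -0.58. Against the hippocampus 2 were higher and 2 lower, beside 34.8% of all rows, and 1 (Egr2, -1.33) differed between hippocampus and cortex. The 3 ParaHox genes, the sister family of the Hox genes, had no call in these 3 comparisons.

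Transcripts within or beside the Hox clusters were called about as often as other rows against the hippocampus (34.8% of all rows), and in 2 of 9 against the cortex (35.7%). Of the 9, Mtx2, which flanks the d cluster, was higher in wild-type cerebellum than in cortex by 0.48, and Snx10, a neighbour of the a cluster, was lower by -1.12. Against the hippocampus 0 were higher and 3 lower (Snx10 by -1.56, Calcoco1 by -0.56 and Skap2 by -0.50). In the 3 comparisons of genotypes no gene of the cofactor, isthmus, regulator, ParaHox or neighbour lists was called by limma, with 0% of all rows called.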

How the data were processed

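RNA of 24 mouse brain samples was measured on arrays. Per the submitters' processing notes the authors used RMA, and the deposited values are taken as log2 from their range (3.89 to 18.96); the sources used here give neither RMA's version and settings nor the genome build, and the labels name both biotin and Cy3. Of 22206 rows, 2634 without a gene were left out; none was filtered for dim signal. Gene names are those of the platform annotation. Probe sequences were not used, so shared signal between Hox paralogues was not checked, nor was detection above background.

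limma 3.58.1 in R 4.3.3 fitted 6 group means (18 residual degrees of freedom), with Benjamini-Hochberg adjustment over 19572 rows and a threshold of 0.05, 2-sided. The script was tested on simulated data. The labels number animals across regions; deviations of arrays from the same animal correlated at -0.06 to 0.10 on average, and fits with the animal as a block are in the closing section. P-values measure the spread between these samples. Named genes were all called members, Hoxa2, and the extremes of each comparison. The members and lists were chosen with earlier results of these data known.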

Additional observations from a re-analysis of the deposited data

Results flagged for a closer look

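In 10 of 198 combinations of a Hox gene and a group of 4 arrays (5.05%), 1 array lay far from the other 3 by Dixon's criterion, which chance alone meets in about 1 of 20 groups. The widest of these separations in log2 value was Hoxa2 in cerebellum KO 3, at 8.42 against 7.31 to 7.42. In the cortex, Hoxa4 was high in WT 3, at 8.93 against 8.41 to 8.50. Hoxc4 was low in WT 2 of cortex, at 6.96 against 7.18 to 7.20, and Hoxc6 in WT 1, at 6.79 against 7.13 to 7.16. Hoxb3 was high in cortex KO 1, at 9.02 against 8.53 to 8.60, and this array bears on the Hoxb3 call of the report. Cerebellum WT 4 was low for Hoxb6, at 6.38 against 6.76 to 6.82, and for Hoxa11, at 6.95 against 7.34 to 7.39. Hoxc13 was high in cerebellum WT 2, at 7.67 against 7.10 to 7.19. Hoxd1 was high in cerebellum KO 2, at 7.62 against 7.50 to 7.51, and Hoxa5 was low in cerebellum KO 1, at 6.54 against 7.05 to 7.12.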

How the results depend on the processing

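The counts of called Hox genes were small under every setting tried. Between cerebellum and cortex in WT the count of 1 became 3 after quantile normalization, 2 with array weights, 0 with a 2-fold requirement, and 1 to 2 with each array left out in turn. Of all 19572 rows 6983 were called in the main fit and 7087, 7653 and 1953 in those settings, in that order. With an array left out it was 6220 to 6988 rows. An equal Hox count was not always the same gene: without cortex WT 1 the 1 Hox call was Hoxa6, lower in cerebellum, and not Hoxc10. Between cerebellum and hippocampus in WT the count of 2 became 1 with arrays centred on their medians (Hoxd13 alone), 5 with array weights, 0 with the 2-fold requirement, and 1 to 3 with each array left out. All rows called were 6807 in the main fit, 7067, 7909 and 1924 in those settings, and 6015 to 6617 with an array left out. In KO, the cerebellum minus cortex count of 2 became 0 with the 2-fold requirement, 1 with cortex KO 1 and KO 4 both left out (chosen after seeing the data), and 1 to 2 with each array left out. All rows called were 6265 in the main fit, 1607 and 5658 in those settings, and 5464 to 6472 with 1 array left out. The cerebellum minus hippocampus count of 1 in KO became 0 in a fit of those 2 groups alone, 2 with array weights, 0 with the 2-fold requirement, and 0 to 2 with each array left out. All rows called were 6103 in the main fit, 5195, 7239 and 1590 in those settings, and 5319 to 6571 with an array left out. Without hippocampus KO 1 the 1 Hox call was Hoxa6, lower in cerebellum, and not Hoxd11. The Hox counts of 0 for hippocampus minus cortex and for KO minus WT stayed 0 in each setting run. For hippocampus minus cortex 267 to 2632 of all rows were called in WT and 361 to 1783 in KO, depending on the setting. Hoxa2, KO minus WT in cerebellum, turned from 0.23 to -0.039 without cerebellum KO 3 and otherwise reached up to 0.35 with an array left out, and the median Hox difference there ran from -0.10 (without WT 4) to -0.0070 (without WT 2). KO 3 was highest for 3 to 4 Hox genes under the other scalings. Restricting to the 9786 rows above the median row left 0 Hox rows, so that alternative gave no value.

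With the animal as a replicate block, fixed or random (consensus correlation 0.00646), the Hox counts were again 1, 2 and 0 in WT and 2, 1 and 0 in KO, and it changed no Hox call. All rows called with the fixed block were 6952, 6783 and 1331 in WT and 6239, 6062 and 1354 in KO. With the random block they were 7004, 6833 and 1387 in WT and 6291, 6129 and 1342 in KO. WT and KO animals share only a number, with mean correlations of -0.01, -0.15 and 0.11 in cortex, hippocampus and cerebellum and the own number best in 1, 0 and 2 of 4; that block also left 0 Hox genes called in each, with 22 of all rows called in cerebellum.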

Other observations

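Within the 22 brainstem and spinal cord markers, the 13 that were highest in cerebellum KO 3 code for transmitter enzymes, transporters, a receptor subunit, intermediate filament proteins and a synuclein, such as Dbh, at 10.87 against 7.15 to 8.53, and Slc5a7, the choline transporter, at 9.65 against 6.18 to 7.17. The 9 that were not highest are all homeobox transcription factors: Hmx2, Isl1, Lbx1, Lhx1, Lmx1b, Nkx6-1, Phox2a, Pou4f1 and Tlx3. Phox2a, a factor of noradrenergic neurons, was at 8.03 against 7.99 to 8.36, and Lmx1b, a factor of serotonin neurons, at 10.22 against 10.09 to 10.51. This split was noticed after the values were seen and has no test. Of the 22 markers 3 were lowest in KO 3, against 27.9% of all rows, with Lhx1 at 7.89 against 9.29 to 9.88. Lhx1 was high in the cerebellum itself, with means of 9.60 in wild-type cerebellum and 6.75 in cortex. Hoxa2 differed from those 9 homeobox genes in being highest in that array.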
